A study of Mus musculus with 2 samples.

Results

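The 6 microRNA genes Mir23a, Mir27a, Mir24-2, Mir23b, Mir27b and Mir24-1 form a pair of paralogous clusters, one on chromosome 8 and one on chromosome 13. They were chosen by name through their identifiers in the GENCODE M21 annotation, and all 6 of 6 were found among the 2202 microRNA genes counted. Small RNA was sequenced from the whole heart of B6CASTF1/J males, a hybrid of the C57BL/6J and CAST/EiJ strains, aged 2 months and with no treatment named. There was 1 group of 2 libraries, numbered as biological replicates and described as different males, although both carry the same donor identifier. Where the libraries do not come from separate animals, the spread between them is technical.

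MicroRNAs are cut from hairpin precursors, and the seed, bases 2 to 8 of the mature form, is the main part that pairs with target messages. Hairpins of a cluster are usually made as 1 primary transcript, so that their mature forms can be produced together. The clusters of miR-23, miR-27 and miR-24 are known from blood vessels, where miR-23 and miR-27 promote angiogenesis and miR-24 acts on endothelial survival. In heart muscle, miR-23a is known as a promoter of hypertrophy.

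The chromosome 8 cluster lies on the plus strand of mm10, and none of its genes overlaps a protein-coding gene. Mir23a is at chr8:84208518-84208592, Mir27a at chr8:84208672-84208758 and Mir24-2 at chr8:84208815-84208921, within 404 bases in all. No annotated gene spans Mir23a or Mir27a, while the last 2 bases of Mir24-2 overlap the exon of the long noncoding RNA gene Gm26532 on the same strand. The chromosome 13 cluster lies inside the aminopeptidase gene Aopep (2010111I01Rik in GENCODE M21), on the same strand, and spans 792 bases. Mir23b at chr13:63300484-63300557 is in an intron of it. Mir27b at chr13:63300712-63300784 and Mir24-1 at chr13:63301208-63301275 overlap exons of some of its annotated transcripts. On the opposite strand, Fancc spans all 3 genes. Both Mir24 hairpins are also overlapped on the opposite strand by a further microRNA gene, Mir3074-2 on chromosome 8 and Mir3074-1 on chromosome 13.

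The hairpins are shown because a read can be assigned to a paralog only through the bases that differ. Each is written 5′ to 3′, with the longest stretch shared with its paralog in capitals. The sequence of the Mir24-1 locus runs over the whole length of Mir3074-1 (chr13:63301199-63301283), read on the strand of Mir24-1.
Mir23a: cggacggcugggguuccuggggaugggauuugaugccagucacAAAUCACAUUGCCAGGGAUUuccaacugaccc
Mir23b: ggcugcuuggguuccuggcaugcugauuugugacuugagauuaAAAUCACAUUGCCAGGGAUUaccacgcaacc
Mir27a: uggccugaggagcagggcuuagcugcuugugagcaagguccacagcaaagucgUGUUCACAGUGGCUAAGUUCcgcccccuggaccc
Mir27b: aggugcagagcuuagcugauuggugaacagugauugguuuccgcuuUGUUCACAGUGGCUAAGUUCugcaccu
Mir24-2: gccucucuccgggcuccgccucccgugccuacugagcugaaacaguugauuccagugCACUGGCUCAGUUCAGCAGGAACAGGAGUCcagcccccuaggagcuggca
Mir24-1: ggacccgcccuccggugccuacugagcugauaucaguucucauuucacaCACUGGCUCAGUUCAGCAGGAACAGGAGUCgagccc

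The shared stretch was 20 bases for Mir23a and Mir23b, 20 for Mir27a and Mir27b, and 30 for the Mir24 loci. Over whole hairpins, identical positions made up 73.8% of the alignment of the Mir23 pair, 61.1% of the Mir27 pair and 54.5% of the Mir24 pair. The Mir24 hairpins, annotated with 107 and 68 bases, gave the lowest share over the alignment, which counts the overhang of the longer one, and held the longest identical stretch. Taken over the shorter hairpin, identical positions made up 88.2% for the Mir24 pair, 79.7% for the Mir23 pair and 79.5% for the Mir27 pair.

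The mature forms of the 3′ arms, from RefSeq (GRCm38.p6), are given with the seed in capitals, together with the 5′ arms of the Mir24 genes, which differ between the loci.
miR-23a-3p: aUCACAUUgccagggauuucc
miR-27a-3p: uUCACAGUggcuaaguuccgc
miR-27b-3p: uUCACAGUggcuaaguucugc
miR-24-3p: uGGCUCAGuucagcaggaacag
miR-24-2-5p: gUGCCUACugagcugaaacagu
miR-24-1-5p: gUGCCUACugagcugauaucagu

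Counted from 1 at the 5′ end, miR-23a-3p differed from the Mir23b hairpin by the single change U19A. The form miR-27a-3p differed from the Mir27b hairpin, which gives miR-27b-3p, by the single change C19U. The 3′ arms of both pairs were therefore told apart at base 19, counted along miR-23a-3p and miR-27a-3p, which have 21 bases each. A read that starts at the 5′ end of the arm and stops before that base matches both paralogs. The length of miR-23b-3p was not known, as the reference has no entry for it. The mature form miR-24-3p, of 22 bases, was found whole at both Mir24 loci. A read from its 5′ end had to reach 28 bases, 6 beyond the mature form, before it was found at 1 of them only. The 5′ arms of the Mir24 genes were told apart at base 17. Reads mapped to several places were counted for no gene in these tables, so reads of the usual form of miR-24-3p enter neither Mir24-1 nor Mir24-2. For these genes a low count does not show a low level of miR-24.

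**Figure D1:**
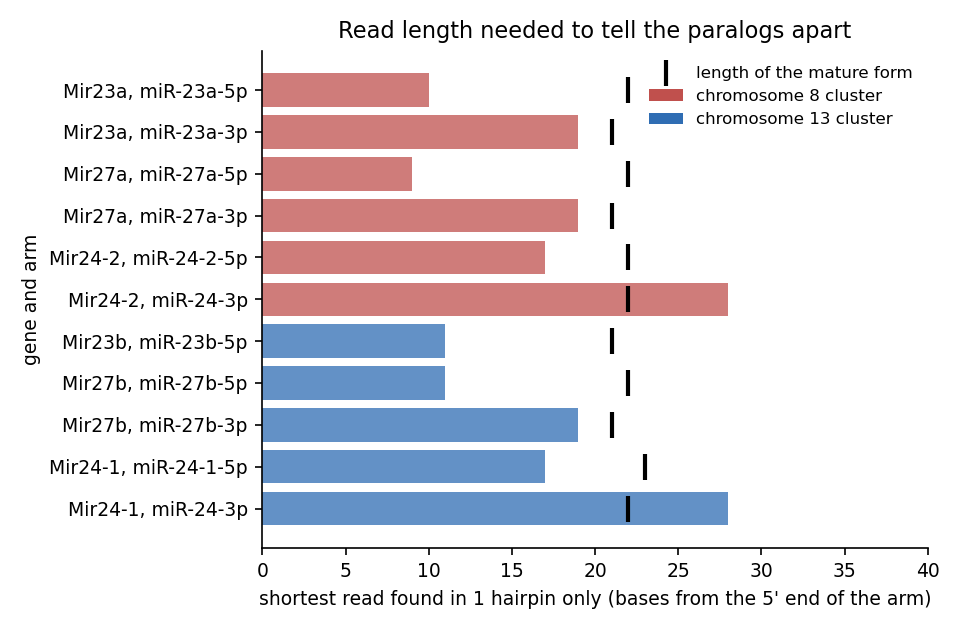
Horizontal bars give, for each mature arm of the 6 genes except miR-23b-3p, the shortest read from its 5′ end (in bases) that is found in 1 hairpin only, and black ticks give the length of the mature form. The bar passes the tick for miR-24-3p alone, at 28 against 22 bases, and reaches 19 of 21 bases for miR-23a-3p, miR-27a-3p and miR-27b-3p.

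The same limit touched other genes. Of 1018 genes of the table with a mature form in RefSeq, 111, or 10.9%, had at least 1 mature form that lay whole in the hairpin of a gene elsewhere. Among the 6 genes these were Mir24-1 and Mir24-2. The seed of miR-27 is the same in both clusters, as is that of miR-24. The seed bases of miR-23a-3p lie unchanged in the Mir23b hairpin, which differs from that form only at base 19. The mature form miR-23b-3p had no entry in the reference, so its own annotated seed was not compared. Outside the 6 genes no mature form of the reference carries the seed of miR-23a-3p or of miR-27. Another 4 genes carry the seed of miR-24-3p, namely Mir6413, Mir6410, Mir6369 and Mir5124b, and none of them had a read in either library. A floor of 3 counts, taken as the limit for a count of 0, was 0.822 CPM in the first library and 0.787 CPM in the second.

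Levels are given in CPM, the counts of a gene scaled to a total of 1000000 over all microRNA genes of the library, on the gene's strand. These totals were 3650782 reads in replicate 1 and 3810675 reads in replicate 2, and reads mapped to several places made up between 46.4% and 48.0% of all reads. A small RNA read covers a mature form whole, so levels were not divided by length, and how well each sequence is recovered in library preparation was not corrected for. Of the heart muscle markers, 6 of 7 genes were at 2 CPM or more in both libraries. None of 6 neuronal genes was, and 4 of them had no count. These 6 are numbered copies of Mir124a and Mir9, and a read that matches several copies is counted for no gene. Their low counts therefore do not show that neuronal microRNAs were absent. The neuronal gene Mir9-3 was at 27.7 CPM in replicate 1 and 0.262 CPM in replicate 2. The liver gene Mir122 was at 142 and 97.9 CPM, and the skeletal muscle gene Mir206 at 37.0 and 303 CPM.

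The summed counts of the 6 genes made up 12.5% of the total in replicate 1, with an exact Clopper-Pearson 95% interval of 12.5 to 12.6. In replicate 2 they made up 12.5%, with an interval of 12.4 to 12.5. Their sum differed less between the libraries than that of either cluster. The chromosome 8 cluster held 6.23% and then 6.76% of the counts in replicates 1 and 2, and the chromosome 13 cluster 6.29% and then 5.71%. The larger share thus belonged to chromosome 13 in replicate 1 and to chromosome 8 in replicate 2, and the clusters were close in both.

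Mir23a and Mir23b, the first hairpins of each cluster, carried nearly all of this. Mir23a was at 60908 CPM in replicate 1 and 64634 CPM in replicate 2, a mean of 62771 ± 2635 (SD, n = 2). Mir23b was at 57970 CPM and 50476 CPM, a mean of 54223 ± 5299 (SD, n = 2). By mean level they held ranks 5 and 7 of all genes, and every value of Mir23a lay above every value of Mir23b. These ranks are over assigned reads only, so genes with numbered copies, whose shared reads are counted for no gene, can stand too low beside them. The Mir23 genes made up 94.9% of the counts of the 6 genes in replicate 1 and 92.3% in replicate 2.

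Mir27b, the second hairpin on chromosome 13, was at 4874 CPM and 6568 CPM in replicates 1 and 2, a mean of 5721 ± 1198 (SD, n = 2). Mir27a on chromosome 8 was at 1301 CPM and 2581 CPM, a mean of 1941 ± 905 (SD, n = 2). Within this pair the chromosome 13 gene was the higher in both libraries, which is the reverse of the order of the Mir23 pair. The Mir27 genes held 4.93% of the counts of the 6 genes in replicate 1 and 7.34% in replicate 2. The family of miR-27 is also known as a repressor of the adipogenic receptor gene Pparg.

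The Mir24 genes had the fewest assigned counts. For Mir24-2, replicate 1 gave 388 counts, or 106 CPM (95% interval 96.0 to 117), while replicate 2 gave 1389, or 365 CPM (346 to 384). For Mir24-1 they gave 292 counts, or 80.0 CPM (71.1 to 89.7), and 320 counts, or 84.0 CPM (75.03 to 93.7). Mir24-2 was the higher in both libraries, and its own replicates lay further apart than the genes did in replicate 1. Within the 30 bases shared by the loci neither gene can gain a read, so these counts are of reads that reach beyond that stretch or lie elsewhere in the hairpins, and the arms are not separated in the files.

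The order of the 6 genes by level was the same in both libraries: Mir23a, Mir23b, Mir27b, Mir27a, Mir24-2 and Mir24-1. For 4 of the 5 neighbouring steps the means differed by more than the sum of the SDs of the genes. Of these steps, the one from Mir23a to Mir23b was closest to that limit, with a difference of 8548 CPM against 7934 CPM. This rule does not pair the genes within a library. Paired, the log2 ratio of Mir23a over Mir23b was 0.21 ± 0.20 (SD, n = 2). The step from Mir24-2 to Mir24-1, 153 CPM, was less than the sum of their SDs, 185 CPM.

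**Figure D2:**
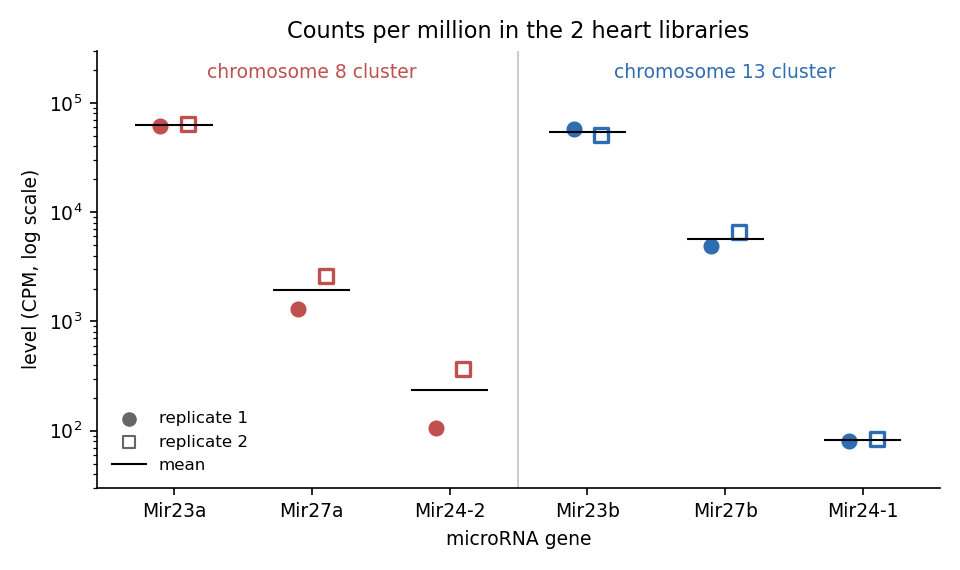
Points give the level in CPM (log scale) of the 6 genes in replicate 1 (filled circles) and replicate 2 (open squares), and lines give the mean of both, with the chromosome 8 cluster on the left and the chromosome 13 cluster on the right. In each cluster the Mir23 gene is the highest and the Mir24 gene the lowest, and the replicates of Mir24-2 and Mir27a stand furthest apart.

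By mean level, Mir23a stood between Mirlet7g at 69037 CPM and the endothelial gene Mir126a at 61220 ± 12739 CPM (SD, n = 2), and it was below Mir126a in replicate 2. Mir23b came after Mir126a and before the smooth muscle gene Mir143 at 49706 CPM. Mir27b stood between Mir93 and Mir322, Mir27a between Mir28a and Mir744, Mir24-2 between Mir338 and Mir128-1, and Mir24-1 between Mir148b and Mir669o. With 2 libraries, no measure of a shared pattern was taken from these neighbours.

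Paralogs were compared as ratios within each library, which do not depend on how the libraries are scaled. No such ratio was tested, since an exact sign-flip permutation test over 2 libraries cannot give a two-sided p below 0.5. Mir23a was 1.05 times Mir23b in replicate 1, and 1.28 times in the second library. The mean of their log2 ratios was 0.21 ± 0.20 (SD, n = 2), about 1 SD from equality. Mir27b was 3.75 times and 2.54 times Mir27a, and the log2 ratio of Mir27a over Mir27b was -1.63 ± 0.39 (SD, n = 2). Mir24-2 was 1.33 times and 4.34 times Mir24-1, with log2 ratios of 1.26 ± 1.20 on average (SD, n = 2). Reads of the usual miR-24-3p enter neither count of this pair. Of all stretches of 22 bases, 77 of 86 in Mir24-2 and 40 of 47 in Mir24-1 were found in no other hairpin. The Mir24 loci can therefore gain reads unequally, and their ratio does not show which gives more miR-24. Only the Mir27 pair was thus set apart from equality by several times its spread.

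Every pair leaned further to chromosome 8 in replicate 2 than in replicate 1. Mir23a made up 51.2% of its pair in replicate 1 (exact 95% limits 51.1 and 51.4), against 56.1% in replicate 2 (56.0 and 56.3). Mir27a made up 21.1% of its pair (20.5 to 21.6) and then 28.2% (27.7 to 28.7). Mir24-2 made up 57.1% of its pair (53.2 to 60.8) and then 81.3% (79.3 to 83.1), on counts that leave out reads of the usual miR-24-3p. The intervals of the libraries did not overlap in any of the 3 pairs. Over all 6 genes, chromosome 8 gave 49.8% (49.6 to 49.9) and then 54.2% (54.0 to 54.3), a mean of 52.0% ± 3.14 (SD, n = 2). The shift is between 2 libraries of 1 group, and it has no replicate of its own.

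**Figure D3:**
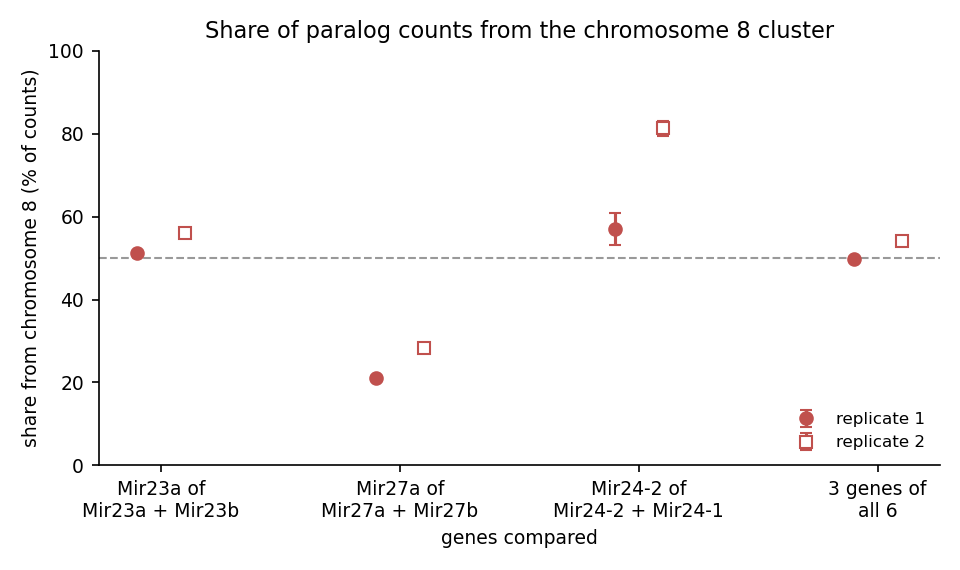
Points give the percentage of the counts of each paralog pair, and of all 6 genes, that came from the chromosome 8 cluster in replicate 1 (filled circles) and replicate 2 (open squares), with Clopper-Pearson 95% intervals and a dashed line at equal shares. In all 3 pairs the share is higher in replicate 2, most of all for Mir24-2, at 57.1% and 81.3%. Counts of the Mir24 pair leave out reads of the usual miR-24-3p.

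Within a cluster the genes differed far more than paralogs did. On chromosome 8, the level of Mir23a was 46.8 times that of Mir27a in replicate 1 and 25.0 times that in the second library. On chromosome 13 the level of Mir23b was 11.9 times that of Mir27b, and then 7.69 times. The log2 ratio of Mir23 over Mir27 was 5.10 ± 0.64 on chromosome 8 and 3.26 ± 0.45 on chromosome 13 (SD, n = 2 each). In both clusters Mir27 was closer to Mir23 in replicate 2. The log2 ratio of Mir27 over Mir24 was 3.22 ± 0.56 for Mir27a over Mir24-2 and 6.10 ± 0.25 for Mir27b over Mir24-1 (SD, n = 2 each). The log2 ratio of Mir23 over Mir24 was 8.31 ± 1.19 on chromosome 8 and 9.36 ± 0.19 on chromosome 13, and reads of the usual miR-24-3p enter neither of these Mir24 levels.

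Other clusters give the setting for this range. Clusters were runs of microRNA genes on 1 strand at most 10 kb apart, with at least 1 gene at 10 CPM or more, and their range was the log2 of the highest over the lowest mean level (CPM + 0.5). The range was 8.06 in the chromosome 8 cluster and 9.36 in the chromosome 13 cluster, beside a median of 4.51 over the 52 other clusters. In both clusters the lowest gene was the Mir24 gene, whose counts leave out reads of the usual miR-24-3p. These ranges therefore do not show how far the levels of the mature forms differ. Without Mir24, the mean log2 ratio of Mir23 over Mir27 was 5.10 on chromosome 8 and 3.26 on chromosome 13. A wider range was found in 10 of the 52 others than on chromosome 8, and in 6 of them than on chromosome 13. These others hold from 2 to 119 genes, and a range grows with the number of genes. Of the 5 other clusters of 3 genes, 0 were wider than either cluster, with a median of 3.56. With genes at most 50 kb apart, 1 of 9 such clusters was wider than either. Among these others a lowest gene with no count is bounded by the pseudocount of 0.5 CPM.

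**Figure D4:**
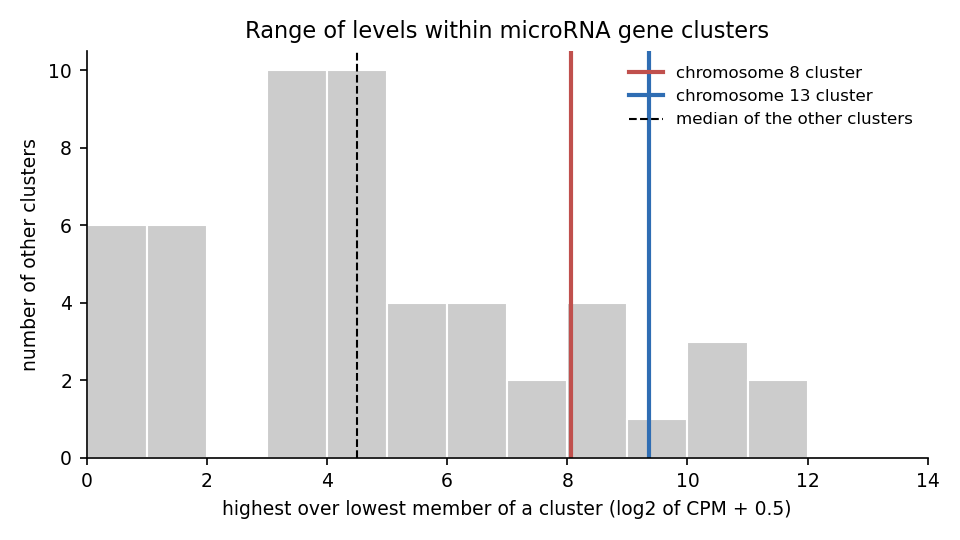
The histogram gives the number of the 52 other clusters by the log2 of their highest over their lowest member (CPM + 0.5), with lines for the chromosome 8 cluster (8.06), the chromosome 13 cluster (9.36) and the median of the others (4.51). Both lines lie in the upper part of the distribution and inside its limits.

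Single genes were then compared between the libraries with an exact binomial test of the counts against TMM library sizes, over 320 genes with enough counts. It sets 2 libraries against counting noise and says nothing of conditions. Of the 6 members, 5 differed at an adjusted p under 0.05, beside 64.4% of all genes tested. With 6 genes, that count lies near the background share. Members higher in replicate 2 numbered 4, beside 30.6% of all genes, and 1 was lower, beside 33.8%. The median log2 ratio of replicate 2 over replicate 1 was 0.24 over the members and 0.02 over all genes, and the median size of the ratio was 0.31 and 0.44.

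On chromosome 8 all 3 genes were higher in replicate 2, by unequal amounts. The log2 ratio of Mir24-2 was 1.76, with an adjusted p of 6.05e-120 by the exact test with Benjamini-Hochberg adjustment. That of Mir27a was 0.97, with an adjusted p of 1e-300 by the same exact test, the smallest value written. That of Mir23a was 0.07 (adjusted p = 2.55e-65, same exact test), a difference of 1.05 times on counts of 222361 and 246301. On chromosome 13, Mir27b was higher in replicate 2 at 0.42 (adjusted p = 2.15e-192, same exact test), and Mir23b was lower at -0.21 (adjusted p = 1e-300, same exact test). Mir24-1 was at 0.06 and did not pass (adjusted p = 0.702, same exact test). Members that moved by more than 1.5 times numbered 2, Mir27a and Mir24-2, beside 39.4% of all genes.

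**Figure D5:**
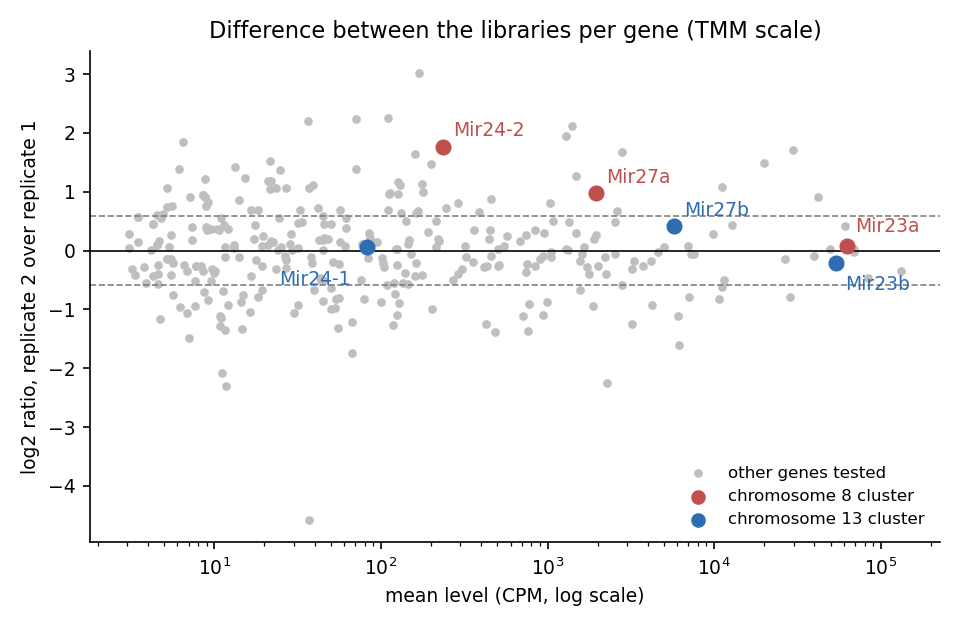
Each point is 1 of the 320 genes tested, with its mean level in CPM (log scale) against the log2 ratio of replicate 2 over replicate 1 on the TMM scale, and dashed lines mark 1.5 times in either direction. Mir24-2 at 1.76 and Mir27a at 0.97 lie above the upper line and the other members lie between the lines, among many genes that scatter as widely.

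The members of 1 cluster did not move by the same amount. The library log2 ratios on chromosome 8 spanned 1.69, from Mir23a to Mir24-2, and those on chromosome 13 spanned 0.63, from Mir23b to Mir27b. The chromosome 8 span rests on Mir24-2, whose counts leave out reads of the usual miR-24-3p. The other genes there, Mir27a and Mir23a, were at 0.97 and 0.07. Over the 32 other clusters with at least a pair of genes at 10 CPM or more in both libraries, the median span was 0.91. A wider span was found in 7 of these 32 than on chromosome 8 and in 22 than on chromosome 13. Markers of cell types moved between the same libraries. The endothelial gene Mir126a rose from 52212 to 70228 CPM, and Mir126b had no count in replicate 1. Of the smooth muscle genes, Mir143 was at 49081 and 50331 CPM and Mir145a fell from 5530 to 2953 CPM, for sums of 54611 and 53284 CPM. The 5 leukocyte genes all fell, from a sum of 10633 to one of 8667 CPM. Of the 3 erythroid genes, 2 rose and Mir451a fell from 1925 to 1217 CPM, for sums of 3222 and 2960 CPM. Of the 5 heart muscle genes tested, 2 rose and 2 fell, and all 7 listed genes summed to 4032 and 6942 CPM. Among these, Mir208a rose from 1329 to 4265 CPM, while Mir499 fell from 2601 to 2507 CPM. The list also holds numbered copies of Mir1a and Mir133a. Reads that match several copies are counted for no gene, so the sums can miss reads of these microRNAs. The part of cell makeup in the difference between the libraries was not tested, and in whole tissue fewer cells of a type and less RNA per cell cannot be told apart.

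Lists of related function showed the same mixture of directions. Of 16 microRNA genes linked to angiogenesis, 14 were tested, with 5 higher and 7 lower in replicate 2 and a median log2 ratio of -0.11. Their leading genes were Mir378a at 132638 CPM, Mir126a and Mir93. Of 14 genes linked to cardiac hypertrophy, 11 were tested, with 5 higher and 3 lower and a median of 0.19. These were led by Mir22, at 13785 CPM in replicate 1 and 45317 CPM in replicate 2, Mir29a and Mir21a. Over all 320 genes, 98 were higher and 108 lower.

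Strand decided whether the Mir24 genes had a value at all. Without regard to strand, both had 0 counts in both libraries, since Mir3074-2 and Mir3074-1 overlap them and such reads are counted for neither gene. With strand, Mir3074-2 had 0 counts in both libraries, at the same floor of 0.822 and 0.787 CPM. The mature form miR-3074-5p, of 22 bases, lies whole at both loci. A read from its 5′ end had to reach 24 bases before it was found at 1 of them only. Reads of its usual form therefore enter neither Mir3074 gene, and counts of these genes do not show its level. For Mir3074-1 the counts were 69 and 54, or 18.9 and 14.2 CPM. Its library log2 ratio of -0.43 did not pass the exact binomial test (adjusted p = 0.153). The counts of Mir23a, Mir27a, Mir23b and Mir27b were the same with and without strand.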

How the data were processed

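Raw read counts per microRNA gene were deposited by the authors as 1 table per library with 3 count columns. Per the deposited text beside each table, reads were placed on mm10 with GENCODE M21. Aligner and counter are not given in the sources used here. The column counting reads on the gene's strand was used, and the 4 rows for reads outside single genes stayed out of all totals. All 2202 identifiers matched GENCODE M21. CPM values were computed as counts over the sum of all gene rows.

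Each gene's counts in the libraries were compared by an exact two-sided binomial test against TMM library sizes (edgeR 4.0.16 in R 4.3.3, filterByExpr, Benjamini-Hochberg adjustment over all 320 genes tested, threshold 0.05). The test code was checked on simulated data. Adjusted p-values under 1e-300 were written as 1e-300. Intervals are exact Clopper-Pearson 95% intervals, and they and the floor of 3 counts (0.822 and 0.787 CPM) cover counting error only. Hairpins and mature forms came from GENCODE M21 and from RefSeq (GRCm38.p6), whose positions and letters were the same for the 6 genes. Uniqueness was searched among the hairpins of the table, on both strands, and not in the whole genome. Alternatives used the column without strand, other denominators, a pseudocount of 1, DESeq2 1.42.0 size factors, plain totals, other filters and distances, and each replicate left out.

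The genes named are the 6 members, Mir3074-1 and Mir3074-2, the genes next to each member by mean CPM, and up to 3 leading genes per list. Others are named only where they carry the seed of miR-24-3p or have numbered copies. Members and lists were chosen with earlier results of these data known.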

Additional observations from a re-analysis of the deposited data

Results flagged for a closer look

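Reads on the opposite strand of Mir24-1 numbered 69 in replicate 1 and 54 in replicate 2, above the 3 counts that a count of 0 allows. They lie in a column that the level of Mir24-1 does not use. The same numbers are counted for Mir3074-1, the microRNA gene annotated there, on its own strand. There they enter the level of Mir3074-1 and the totals. The other 5 genes had 0 reads on the opposite strand in both libraries.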

How the results depend on the processing

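No paired analysis was possible because the libraries form 1 group. Without regard to strand, the 6 genes held 16.2% of the counts, Mir23a was at 81378 CPM, Mir23b at 70359 CPM, Mir27b at 7409 CPM, and Mir24-2 and Mir24-1 both at 0 CPM. The ratios that involve a Mir24 gene gave no value there. Over all uniquely mapped reads, the share was 11.02%, Mir23a was at 55380 CPM, Mir23b at 47774 CPM and Mir24-1 at 72.3 CPM. With the most abundant gene left out of the denominator, the share was 14.4%, Mir23a was at 72355 CPM, Mir23b at 62611 CPM and Mir24-1 at 94.5 CPM. These denominators change the scale by construction, and none of them holds the reads mapped to several places. With clusters of genes at most 1 kb apart, 5.88% of the other clusters had a wider range than the chromosome 13 cluster, against 11.5% at 10 kb. The other 57 of 72 alternatives that kept both libraries stayed within the replicate SD, on the same side of the threshold, or within 1.5 times for counts and percentages. The number of members that differed between the libraries was 5 in all settings with strand and 4, of 4 tested, without.

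Leaving out either replicate leaves the value of the other, with no test. The log2 ratio of Mir23a over Mir23b then ranged from 0.07 to 0.36, Mir27a over Mir27b from -1.90 to -1.35, and Mir24-2 over Mir24-1 from 0.41 to 2.11. The chromosome 8 share ranged from 49.8 to 54.2%, so which cluster is the larger rests on the replicate used. More depth would narrow the counting intervals of the Mir24 genes and would not assign the reads of their shared stretch.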
